A study of Mus musculus with 8 samples.

Results

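Cells said to lack Prdm16 were compared with the wild-type cells of the same set in mouse embryoid bodies, clumps of embryonic stem cells left to differentiate in serum medium, at day 9. Each side held 2 RNA-seq libraries of total RNA. Members were loci, 1 for each distinct locus of the deposited gene table that carried a gene name, whose value reached 10 in 2 or more of the 4 libraries. This gave 16032 of 52281 named loci. A value is a normalised fragment, the number of sequenced fragments on a locus divided by a size factor for its library, so values compare a locus between libraries and not loci with each other. The control was wild type and the knockout was labelled as lacking Prdm16, both on a C57BL/6 background. The other wild-type group of the series, the control of a knockout of the PR domain (labelled exon 4), also held 2 libraries of day 9 embryoid bodies on the same background. It is called the PR domain control here and is given beside the results, since it shows where another wild-type set of the same age stood. The 4 libraries of the comparison held between 6273789 and 8142365 fragments on named loci, which gives low loci a wide counting error.

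The labels name neither the stem cell line or clone nor the deleted part of Prdm16, and do not say that replicates were separate cultures. The knockout and the clone or culture that carried it therefore cannot be told apart, and p-values reflect no more than how these libraries scatter, which may be technical. In bulk RNA, fewer cells of a type and less RNA per cell cannot be told apart either. The label of mixed day 9 derivatives was set against marker lists. Cardiomyocyte, endothelial, macrophage, erythroid, fibroblast and visceral endoderm markers were present in the control libraries. Of the markers of skeletal muscle, mast cells and granulocytes, and trophoblast, 12 of 17, 13 of 17 and 9 of 16 lay below the filter. Of pluripotency genes, 9 of 22 did, the naive-state genes Dppa3, Zfp42 and Esrrb among them.

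Prdm16 encodes a zinc finger transcription regulator with a PR domain, a relative of the catalytic domain of histone methyltransferases. It binds corepressors such as the CtBP proteins and is best known for promoting brown over muscle fate, maintaining blood and neural stem cells, and shaping craniofacial, cardiac and arterial development. Embryoid bodies hold early forms of several of these lineages, together with a yolk sac-like endoderm that secretes plasma proteins.

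Prdm16 itself (chromosome 4, 154316125 to 154636873, GRCm38) was low, at 24.4 and 26.3 normalised fragments in the control and 11.2 and 1.10 in the knockout (log2 difference -2.38 ± 0.50, adjusted p = 0.000309). Log2 differences here and below are knockout minus control on log2(value + 1), with the standard error and the adjusted p from limma (Benjamini-Hochberg over the 16032 loci). The groups did not overlap, but knockout replicate 1 kept several fragments, and leaving out knockout replicate 2 or 1 changed the difference to -1.11 or -3.65. It was not called on log2(FPKM + 1). Among the 27 other loci within 1 Mb of Prdm16, 4 rose (Smim1, Megf6, Tnfrsf14 and Rer1) and 3 fell. These shares of 14.8% and 11.1% were below the 18.6% and 21.8% of all 16032 loci called higher and lower. Smim1, a blood group protein gene, went from 901 and 943 to 1501 and 1419 (0.66 ± 0.05, adjusted p = 2.61e-11). The list of Prdm16 and its known partners gave 2 rises and 6 falls among 17 tested members, Prdm16 included. That is 11.8% and 35.3%, beside the same 18.6% and 21.8% of all loci. Ehmt1, the gene of an H3K9 methyltransferase that binds Prdm16, fell little (-0.20 ± 0.05, adjusted p = 0.00387). The small fall at Ctbp1 did not hold in every leave-one-out fit and was not called without control replicate 1 (adjusted p = 0.093), knockout replicate 1 (adjusted p = 0.0669) or knockout replicate 2 (adjusted p = 0.0666), and Ctbp2 shares its locus with Fgfr2, so its value belongs to neither gene alone. Hdac1, Hdac2, Med1, Ski, Skil and Ehmt2 did not pass. Lmna, the nuclear lamin A gene, rose from 632 and 622 to 1024 and 1016 (0.70 ± 0.06, adjusted p = 3.91e-10).

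Limma called 6466 of 16032 loci at an adjusted p below 0.05, which is 40.3% of loci. Of these, 2975 (18.6% of loci) were higher and 3491 (21.8%) lower in the knockout. These shares are the background against which every group below is read. Most calls were small: 1761 of the higher and 2290 of the lower calls were under 1.5-fold. At least 2-fold differences were 522 rises (3.26%) and 611 falls (3.81%), and at least 4-fold differences were 54 rises and 141 falls. The knockout libraries lay above all 4 wild-type libraries at 3196 loci (19.9%) and below all 4 at 3774 loci (23.5%). Of the called rises 2100 (70.6%) did so and of the called falls 2620 (75.1%). At the remaining calls at least 1 wild-type library, of either control group, reached the knockout's range. Calls were more frequent at well covered loci, from 9.73% higher and 14.5% lower in the lowest of 5 equal bins of level to 27.2% and 32.9% in the highest. Protein-coding loci were called higher in 20.8% and lower in 24.0% of 13291 cases, and long non-coding RNAs in 8.85% and 14.4% of 1073.

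**Figure D1:**
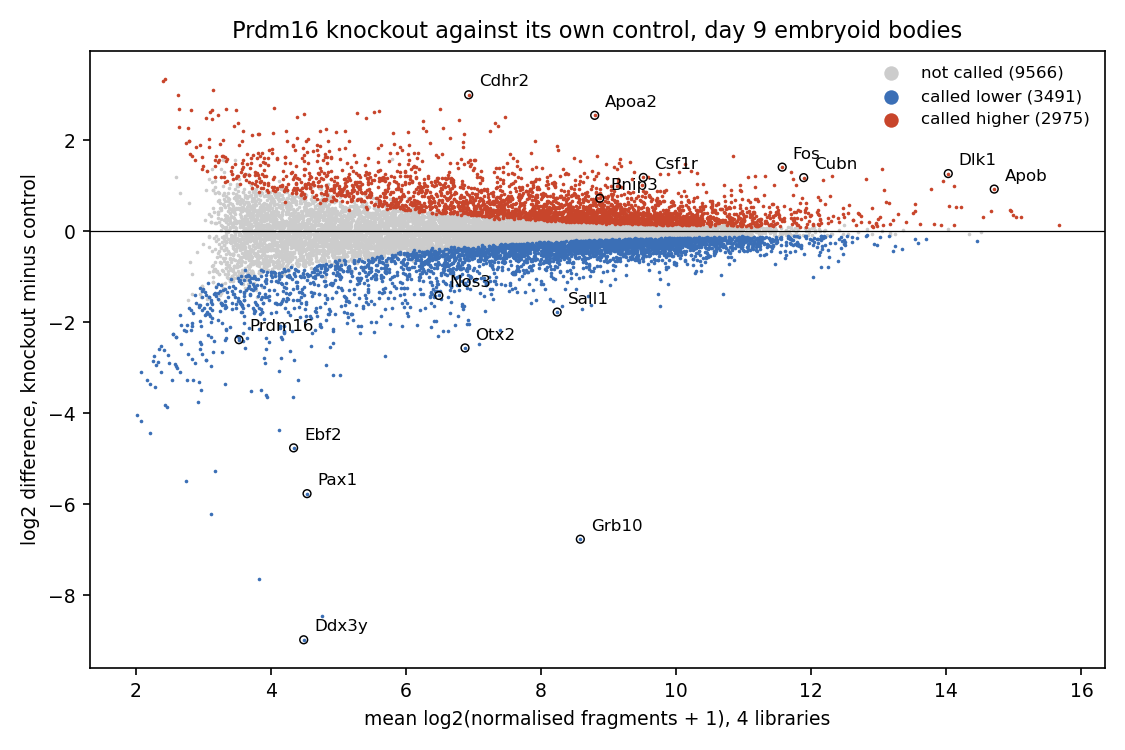
Mean log2 level of each of the 16032 loci over the 4 libraries (horizontal) against the log2 difference, knockout minus control (vertical), with called loci coloured and selected loci named. Large falls reach further from 0 than large rises, with 141 falls and 54 rises of at least 4-fold.

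The falls were not spread evenly over the genome. Loci on chromosomes 8 and 19 had median log2 differences of -0.18 and -0.20, while the medians of the other autosomes and the X chromosome lay between -0.05 and 0.03 and the median of all loci was -0.03. On chromosome 8, 38.8% of 800 loci were called lower and 10.1% higher, and on chromosome 19 the shares were 42.0% and 10.5% of 507. Over loci with a mean level of at least 100, the chromosome 8 median relative to the mean of the 8 libraries was 0.037 and 0.049 in the control, -0.146 and -0.151 in the knockout, against 0.227 and 0.219 for the PR domain control. For chromosome 19 it was 0.062 and 0.060, then -0.144 and -0.163, then 0.113 and 0.112. The other 18 chromosomes stayed between -0.074 and 0.079 in every library of the series. Replicates agreed closely on both chromosomes, and the 2 wild-type groups differed from each other as well as from the knockout. The PR domain knockout was at -0.122 and -0.101 on chromosome 8, also below both wild-type groups. On chromosome 19 it was at -0.03 and -0.008. A low chromosome 8 was thus not particular to the Prdm16 knockout. In 20 Mb windows the shift ran along nearly the whole of each chromosome, with window medians between -0.249 and -0.161 on chromosome 8 and between -0.257 and -0.124 on chromosome 19, apart from the last window of each, which held 21 and 7 loci and had medians of -0.023 and -0.025. Without chromosomes 8, 19 and Y, 2833 loci were called higher and 2948 lower.

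**Figure D2:**
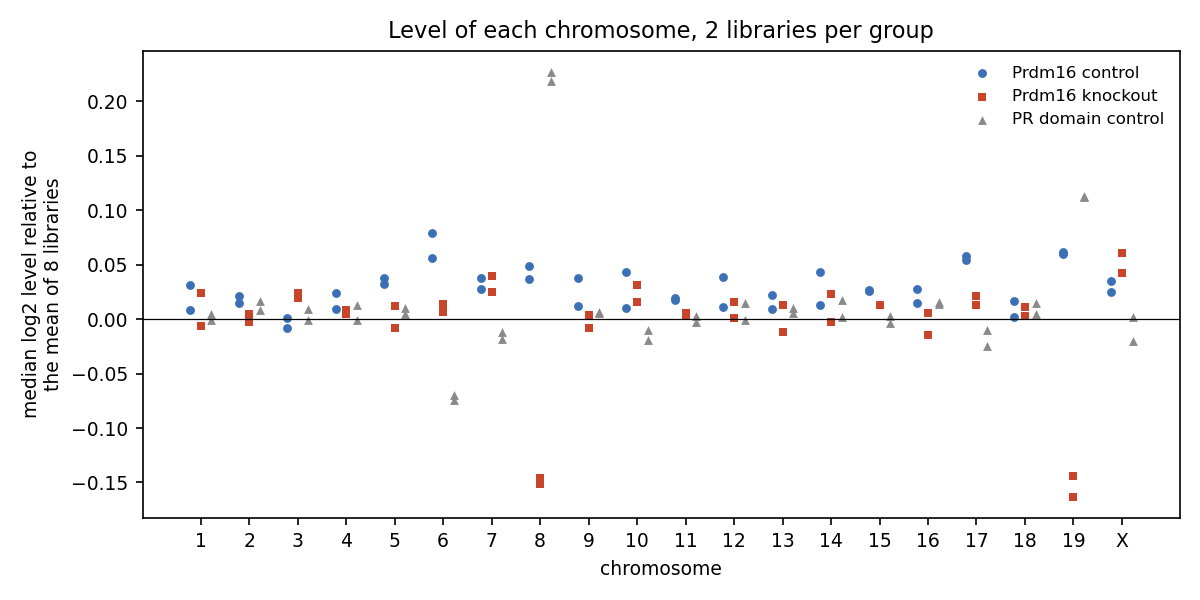
Median log2 level of the loci of each chromosome (mean level at least 100) relative to the mean over 8 libraries, 1 point per library of the Prdm16 control, the Prdm16 knockout and the PR domain control. On chromosomes 8 and 19 the knockout points lie between -0.163 and -0.144, below both wild-type groups, and the other 18 chromosomes stay between -0.074 and 0.079.

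All 4 tested Y-linked genes fell. Eif2s3y, a translation factor gene, had 503 and 516 normalised fragments in the control and 0 and 1.10 in the knockout, with 854 and 845 in the PR domain control. The control was thus below the PR domain control at these genes, and the knockout near 0. Of 9 tested X-linked partners and inactivation genes, 0 rose and 3 fell, among them Uba1 (-0.22 ± 0.04, adjusted p = 1.65e-05), and Xist lay below the filter. Without knockout replicate 1 the count of falls was 1. Only 7 called loci had 0 fragments in both knockout libraries, 3 of them Y-linked. The other 4 were Cer1 and, named after their values were seen, Mal, Fezf2 and Hmx3, which had 41, 34 and 31 fragments in the control and for which a floor of 3 fragments over both knockout libraries gives falls of at least 11.7-fold, 9.65-fold and 8.75-fold. Floors cover counting error only.

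Transcription factors of the sclerotome and of nephrogenic mesenchyme fell together. Of the 68 gene lists, only the Y-linked genes had a lower median than the sclerotome and somite factors. The sclerotome is the part of the somite that forms vertebrae and ribs, under the paired factors Pax1 and Pax9. In the list of sclerotome and somite factors, 7 of 10 tested members fell, 1 rose and the median log2 difference was -2.26. Pax9 stood at 46.6 and 61.1 in the control, 4.96 and 8.80 in the knockout, set beside 72.0 and 78.4 for the PR domain control (-2.83 ± 0.27, adjusted p = 1.10e-09). For Eya1, a transcriptional coactivator, the values were 206 and 187, 36.0 and 41.8 and 218 and 194 (-2.31 ± 0.15, adjusted p = 2.74e-13). At both genes each knockout library was below each wild-type library. Foxc1, a forkhead factor of somites and cardiovascular mesenchyme, fell from 90.1 and 106 to 23.6 and 17.6 (-2.21 ± 0.19, adjusted p = 2.11e-10). Tbx18, a T-box gene shared by somites and epicardium, went the other way (70.0 and 94.1 to 122 and 144; 0.70 ± 0.15, adjusted p = 0.000509), and Meox1 did not pass.

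Nephrogenic factors showed the same split. Of 13 tested genes of kidney and intermediate mesoderm, 9 fell and 2 rose, with a median of -1.73. Six2, which keeps nephron progenitors undifferentiated, stood at 55.1 and 48.9 in the control against 4.96 and 2.20 in the knockout (-3.60 ± 0.31, adjusted p = 1.28e-10), and Osr1, an early intermediate mesoderm factor, at 23.3 and 18.8 against 1.24 and 3.30 (-2.82 ± 0.39, adjusted p = 1.08e-06). Foxd1, a marker of kidney stroma, went from 59.4 and 50.8 to 0 and 1.10, with 30.4 and 25.8 in the PR domain control. Sall1, a zinc finger gene of the same mesenchyme, fell from 549 and 567 to 159 and 166 (-1.77 ± 0.09, adjusted p = 1.63e-15). It lies on chromosome 8, where the median shift was far smaller. The rises were Wt1, a factor of kidney and of the mesothelium that covers the heart (218 and 276 to 532 and 537; 1.12 ± 0.09, adjusted p = 1.11e-11), and Cited1, a transcriptional coactivator gene (217 and 217 to 557 and 491), which was at 47.7 and 28.9 in the PR domain control.

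Cranial and limb mesenchyme factors were divided, with 7 falls and 5 rises in 19, and their median of -0.14 took either sign across the alternatives. Twist1, a basic helix-loop-helix factor of head mesenchyme, fell from 265 and 293 to 130.3 and 116 (-1.18 ± 0.12, adjusted p = 3.34e-09) and Alx1 from 32.9 and 32.0 to 9.93 and 8.80 (-1.69 ± 0.34, adjusted p = 0.000165). Twist2 rose from 111 and 107 to 136 and 157 (0.42 ± 0.13, adjusted p = 0.0121). The related genes Twist1 and Twist2 thus moved in opposite directions, although Twist2 was not called without control replicate 2 (adjusted p = 0.0657) or knockout replicate 2 (adjusted p = 0.131). A further Twist2 locus did not pass. The count of rises in this list was 3 without knockout replicate 2. In the Ebf family and its partners, 5 of 6 members fell and 5 of these lay below all 4 wild-type libraries. The fall of Zfp423 was the smallest of them (-0.19) and only just passed. Ebf3 stood at 98.6 and 98.8 in the control and 26.1 and 34.1 in the knockout (-1.69 ± 0.17, adjusted p = 4.85e-09), and Ebf4, at 142 and 124 and 144 and 122, did not pass (-0.00 ± 0.14, adjusted p = 0.991). Neuronal and signalling genes were also among the 20 largest falls. Dab1, the reelin signal adaptor, went from 127 and 137 to 17.4 and 20.9 (-2.73 ± 0.20, adjusted p = 4.01e-12), Dpysl5, a growth cone protein gene, from 346 and 366 to 60.8 and 100.1 (-2.17 ± 0.14, adjusted p = 6.66e-13), and Bmper, a BMP-binding protein gene, from 139 and 151 to 40.9 and 28.6 (-2.05 ± 0.21, adjusted p = 3.38e-09). For Dab1, Dpysl5 and Bmper the PR domain control was above the knockout (119.7 and 146, 302 and 274 and 73.0 and 96.0). Irs4, an insulin receptor substrate gene, fell from 311 and 327 to 54.6 and 58.3 but was lower still in the PR domain control (11.2 and 12.4).

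**Figure D3:**
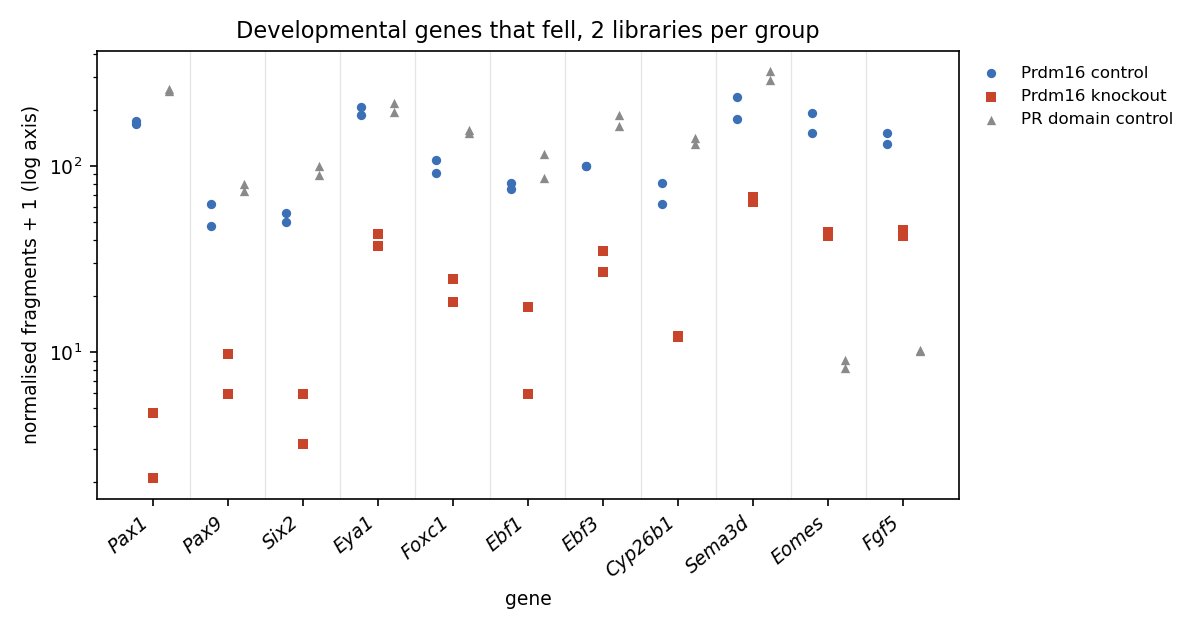
Normalised fragments plus 1 (log axis) of 11 developmental regulator genes that fell, 1 point per library of the Prdm16 control, Prdm16 knockout and PR domain control. For Pax1, Pax9, Six2, Eya1, Foxc1, Ebf1, Ebf3, Cyp26b1 and Sema3d all knockout points lie below all wild-type points, while for Eomes and Fgf5 the PR domain control lies lowest.

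Neural and epiblast factors fell too, but here the wild-type groups also differed. Neural progenitor factors gave 15 falls and 1 rise in 22 tested, with 8 of the falls below all 4 wild-type libraries. The Iroquois genes Irx1, Irx2 and Irx5, which pattern neural and cardiac tissue, stood at 12.4 and 13.2, 7.44 and 4.40 and 14.9 and 5.50 in the knockout, against 47.7 and 45.1, 27.6 and 30.1 and 53.01 and 61.1 in the control, with differences of -1.78, -2.14 and -2.51. At each of these the PR domain control was at or above the control. Zic1, a zinc finger factor of the dorsal neural tube, also fell (33.9 and 46.1 to 6.20 and 7.70; -2.36 ± 0.53, adjusted p = 0.000669), yet its PR domain control values were 1.01 and 5.16. Sox1, a SoxB factor of early neural plate, had the same order (55.1 and 41.4, 3.72 and 12.1 and 4.06 and 2.06 in the PR domain control). Primed epiblast and streak genes gave 14 falls and 1 rise in 18 with a median of -1.63, and only 3 of the falls lay below all 4 wild-type libraries, those of Gsc, Otx2 and Sall2. Eomes, a T-box gene of the streak, was at 148 and 191 in the control, 40.9 and 42.9 in the knockout, set beside 8.11 and 7.22 for the PR domain control (-1.98 ± 0.36, adjusted p = 6.28e-05). Pou5f1, the pluripotency factor Oct4, followed that order (272 and 262, 151 and 129 and 9.13 and 8.26; -0.93 ± 0.22, adjusted p = 0.000853). For these genes the knockout therefore stood between the 2 wild-type groups, as it did for the ligand gene Fgf5 (129 and 149.5, 40.9 and 44.0 and 9.13 and 9.29). Neuronal genes fell in 9 of 12 cases. Stmn2, a microtubule regulator of growing axons, went from 184 and 181 to 74.4 and 79.2 (-1.24 ± 0.17, adjusted p = 5.85e-07), and Dcx, the doublecortin gene of migrating neurons, from 22.3 and 24.5 to 7.44 and 3.30 (-2.01 ± 0.40, adjusted p = 0.000164).

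Among signalling genes, retinoic acid enzymes and binding proteins were divided. This pathway makes retinoic acid with Aldh1a enzymes, destroys it with Cyp26 enzymes and reads it with nuclear receptors. Of 17 tested members 6 rose and 7 fell. Cyp26b1, a degrading enzyme gene, stood at 79.5 and 61.1 in the control, 11.2 and 11.0 in the knockout, set beside 141 and 130 for the PR domain control (-2.55 ± 0.22, adjusted p = 9.23e-11). Cyp26a1 fell from 250.2 and 275 to 75.7 and 79.2 (-1.75 ± 0.18, adjusted p = 5.64e-09). Of the synthesising enzymes, Aldh1a3 fell (33.9 and 34.8 to 8.68 and 9.90; -1.78 ± 0.37, adjusted p = 0.00027) and Aldh1a2 rose (73.2 and 88.4 to 156 and 171; 1.01 ± 0.13, adjusted p = 2.51e-07). Rarb, a receptor gene that retinoic acid itself induces, rose from 324 and 331 to 537 and 506 (0.67 ± 0.08, adjusted p = 3.61e-08), while Rara and Rarg, at -0.07 and -0.16, did not pass.

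In the Hedgehog pathway 7 of 15 members fell and 3 rose, with 3 of the falls below and 1 of the rises above all 4 wild-type libraries. The ligands diverged. Shh, the notochord and floor plate ligand, fell from 66.8 and 56.4 to 16.1 and 18.7 (-1.76 ± 0.23, adjusted p = 3.94e-07), whereas Ihh, the ligand of visceral endoderm and cartilage, rose from 68.9 and 69.6 to 150.1 and 156 (1.13 ± 0.21, adjusted p = 6.94e-05). The target genes Ptch1 (-0.46 ± 0.06, adjusted p = 1.89e-07) and Gli1 (-0.54 ± 0.13, adjusted p = 0.00104) fell, with the PR domain control lower than the knockout at both (739 and 699 and 111 and 100.1). In the FGF list 10 of 23 fell and 3 rose, with 6 of the falls below and 2 of the rises above all 4 wild-type libraries. Fgf3, a ligand of ear and streak development, stood at 28.6 and 18.8 against 2.48 and 3.30 (-2.65 ± 0.36, adjusted p = 6.65e-07), and Fgfr3, a receptor gene, rose from 340.3 and 379 to 615 and 626 (0.79 ± 0.08, adjusted p = 3.15e-09). Fgf10, a mesenchymal ligand of limb, lung and the second heart field, rose from 321 and 343 to 531 and 561 (0.72 ± 0.08, adjusted p = 3.61e-08). Wnt antagonists and targets gave 10 falls and 4 rises in 19. The 4 rises lay above all 4 wild-type libraries, but only 4 of the falls lay below them. The targets Axin2, a feedback inhibitor (135 and 120.4 to 60.8 and 58.3; -1.08 ± 0.18, adjusted p = 2.01e-05), and Lef1, a transcriptional mediator of Wnt signals (89.1 and 96.9 to 27.3 and 18.7; -1.99 ± 0.23, adjusted p = 4.55e-08), fell. The secreted antagonists Dkk2 (0.86 ± 0.12, adjusted p = 1.27e-06) and Sfrp2 (0.77 ± 0.10, adjusted p = 2.24e-07) rose and lay above all 4 wild-type libraries, and Dkk1 fell (-0.83 ± 0.13, adjusted p = 8.84e-06). Ligand and receptor genes of the pathway gave 4 rises and 7 falls in 23, with fewer rises without knockout replicate 2. These shares of 17.4% and 30.4% stood beside 18.6% and 21.8% of all loci. Axon guidance genes gave 8 rises and 14 falls in 30, of which Sema3d, a secreted semaphorin of the epicardium, had the smallest adjusted p among the larger falls (177 and 234 to 67.0 and 62.7; -1.64 ± 0.13, adjusted p = 2.03e-11).

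**Figure D4:**
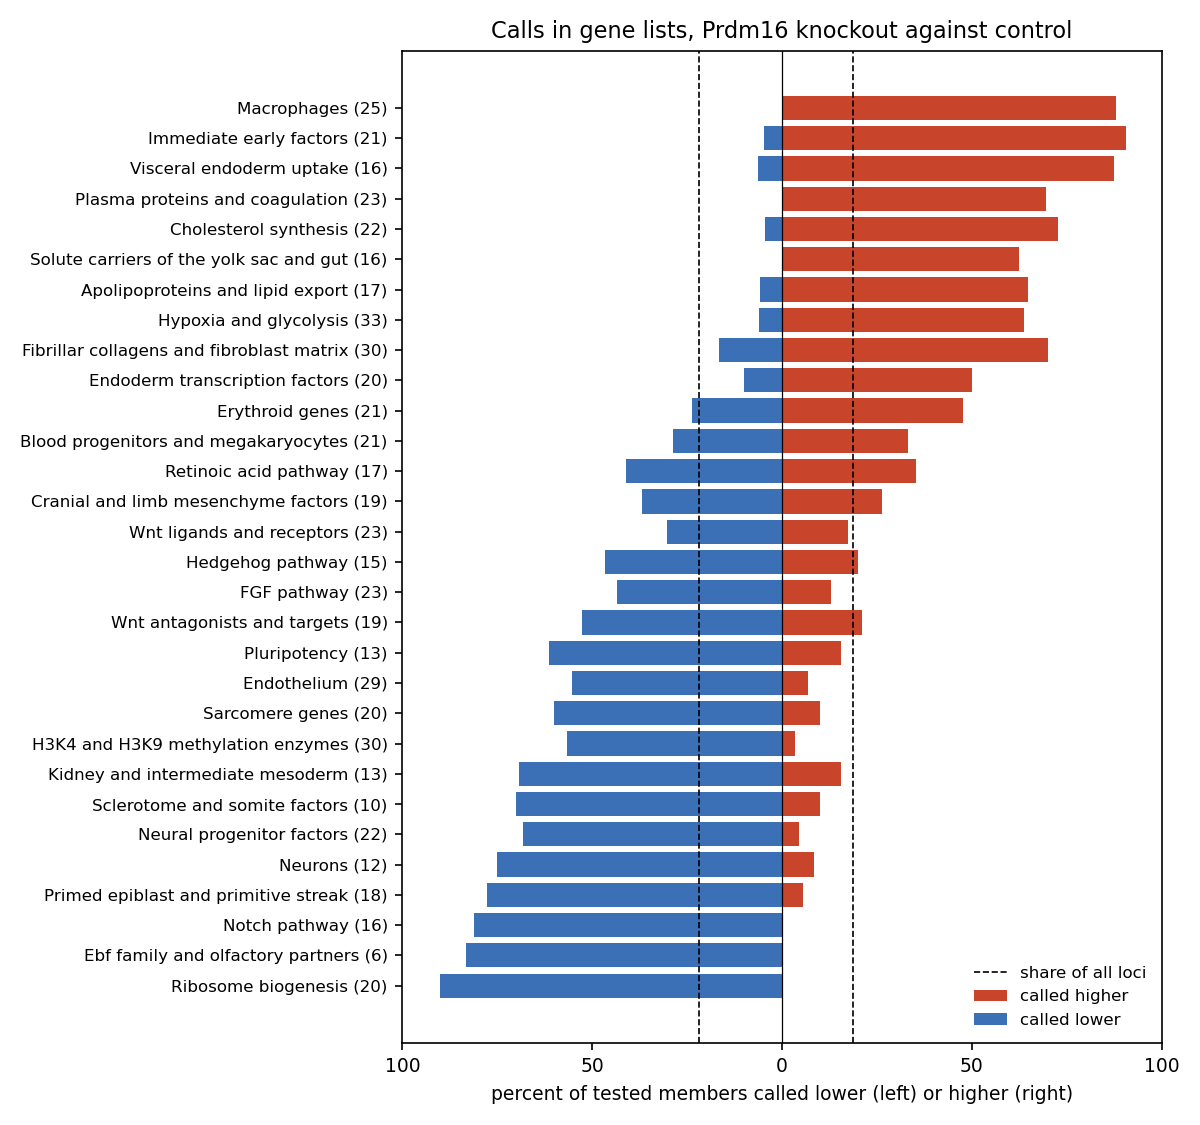
Percent of tested members of 30 gene lists called higher (right) and lower (left) in the Prdm16 knockout, with the number tested beside each name and dashed lines at the shares of all 16032 loci (18.6% and 21.8%). Endoderm, macrophage, immediate early, cholesterol and hypoxia lists lean to the right and neural, Notch and ribosome biogenesis lists to the left.

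Genes of the absorptive yolk sac endoderm rose almost throughout. This epithelium takes up maternal protein through the receptor pair cubilin and amnionless and secretes lipoproteins and plasma proteins. Of 16 tested uptake and brush border genes, 14 rose and 1 fell, with a median of 1.02, and all 14 rises lay above all 4 wild-type libraries. Cubn, the cubilin gene, stood at 2443 and 2598 in the control, 5653 and 5765 in the knockout, set beside 89.2 and 119 for the PR domain control (1.18 ± 0.10, adjusted p = 4.95e-11). Amn, the amnionless gene, stood at 161 and 150.5, 603 and 551 and 0 and 4.13 (1.88 ± 0.41, adjusted p = 0.000505). The glucose transporter gene Slc2a2 was at 41.3 and 79.9, 231 and 222 and 0 in both (1.96 ± 0.41, adjusted p = 0.000283). The exception was Lrp2, the megalin gene, which fell from 1377 and 1354 to 1172 and 1186 (-0.21 ± 0.05, adjusted p = 0.00213). The PR domain control was therefore far below both groups for the receptor genes Cubn and Amn, and the distance between the wild-type groups was larger than that between the knockout and its own control.

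Lipid export and plasma protein genes showed the same order. Apolipoproteins and lipid export genes gave 11 rises and 1 fall in 17. Apob, the core protein of these particles, had 19038 and 19824 in the control, 36372 and 37576 in the knockout, set beside 1279 and 1334 for the PR domain control (0.93 ± 0.04, adjusted p = 9.57e-17), and Mttp, which loads lipid on to it, had 1378 and 1401, 2813 and 2802 and 226 and 235 (1.01 ± 0.06, adjusted p = 5.61e-14). Abcg1, a cholesterol efflux transporter gene, fell from 28.6 and 36.7 to 11.2 and 23.1 (-0.96 ± 0.31, adjusted p = 0.0132), but was not called without control replicate 2 (adjusted p = 0.126) or knockout replicate 1 (adjusted p = 0.282), and its log2 difference ranged from -1.46 to -0.47 with 1 library left out. A further Abcg1 locus did not pass. Plasma protein and coagulation genes gave 16 rises and 0 falls in 23 (1 fall without knockout replicate 2). The fibrinogen chain genes Fga, Fgb and Fgg rose, with log2 differences of 1.56, 1.43 and 2.41. F2, the prothrombin gene, went from 103 and 103 to 341 and 331 (1.70 ± 0.36, adjusted p = 0.000352). Proc, the anticoagulant protein C gene, went from 45.6 and 51.7 to 226 and 184 (2.05 ± 0.28, adjusted p = 7.75e-07). Serpinc1, the antithrombin gene (-0.13), F5 (-0.37) and Vtn (-0.27) did not pass. Among solute carriers of yolk sac and gut 10 of 16 rose and 0 fell. Slc13a4, a sulfate transporter gene, rose from 797 and 715 to 1909 and 1887 (1.33 ± 0.10, adjusted p = 2.37e-11), with 37.5 and 44.4 in the PR domain control. Endoderm transcription factors rose in 10 of 20 cases and fell in 2, with 6 rises without control replicate 1, control replicate 2 or knockout replicate 2, and 1 fall without any 1 of the 4 libraries. Hnf4a, which drives many of these liver-type genes, stood at 353 and 369 in the control, 546 and 546 in the knockout, set beside 64.9 and 77.4 for the PR domain control (0.60 ± 0.11, adjusted p = 7.64e-05), while Foxa2, at 106 and 94.1 and 129 and 118, did not pass (0.30 ± 0.21, adjusted p = 0.261) and Sox17 was at 0.02.

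The 20 largest rises also held genes outside the endoderm lists above. Nostrin, a regulator of endothelial nitric oxide synthase traffic, went from 31.8 and 37.6 to 228 and 229 (2.69 ± 0.21, adjusted p = 1.81e-11). Aqp8, a water channel gene, went from 52.0 and 41.4 to 236 and 284 (2.45 ± 0.18, adjusted p = 8.94e-12), and Igfbp1, a secreted IGF-binding protein gene, from 126 and 115 to 453 and 503 (1.98 ± 0.35, adjusted p = 3.16e-05). The X-linked genes Rhox5, a homeobox gene of the reproductive cluster, and Trap1a rose from 77.4 and 69.6 to 435 and 410.4 (2.51 ± 0.25, adjusted p = 1.79e-09) and from 77.4 and 63.0 to 308 and 344 (2.20 ± 0.39, adjusted p = 3.31e-05). Rhox5 was the one rise among 7 tested germ cell genes, of which 5 fell (2 without control replicate 2 and 3 without knockout replicate 2). Rhox9, of the same cluster, was among those falls (-2.87 ± 0.70, adjusted p = 0.0014), at levels at or below 20 in every library. In the PR domain control, Igfbp1 was at 7.10 and 1.03 and Trap1a at 6.08 and 5.16, below both groups, while Nostrin, at 25.4 and 34.1, was level with the control.

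Of 25 macrophage genes 22 rose and 0 fell (1 without control replicate 2), with a median of 1.12, but only 2 of the rises lay above all 4 wild-type libraries. The summed level of the list was 5609 and 5762 in the control, 11017 and 11232 in the knockout, set beside 11063 and 10769 for the PR domain control, so the knockout lay near the other wild-type group and the control was lowest. Ctss, the lysosomal protease cathepsin S, stood at 55.1 and 46.1, 171 and 163 and 267 and 290 (1.71 ± 0.11, adjusted p = 6.71e-13). Trem2, a lipid receptor gene of macrophages and microglia, stood at 31.8 and 37.6, 94.3 and 102 and 157 and 196 (1.48 ± 0.15, adjusted p = 2.82e-09). Spi1, the PU.1 factor needed for macrophage fate, went from 70.0 and 72.4 to 125 and 119 (0.77 ± 0.13, adjusted p = 2.23e-05). Clec7a, a receptor for fungal walls, and Cybb, a subunit of the phagocyte oxidase, were among the 20 largest rises (2.27 ± 0.12, adjusted p = 3.26e-15 and 1.93 ± 0.15, adjusted p = 1.64e-11). Pf4, shared with platelets, C1qa and Ccl4 did not pass. The rises above all 4 were those of Lgmn, a protease also made by yolk sac endoderm (2531 and 2611 to 4490.1 and 4445), and Mrc1, the mannose receptor.

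Blood progenitor and megakaryocyte genes split evenly, 7 up and 6 down in 21, which is 33.3% and 28.6% beside 18.6% and 21.8% of all loci. Ppbp, a platelet chemokine gene, fell from 57.3 and 49.8 to 9.93 and 14.3 (-2.07 ± 0.20, adjusted p = 1.00e-09), and Gata2, a stem and progenitor factor, from 71.0 and 85.6 to 36.0 and 42.9 (-0.97 ± 0.22, adjusted p = 0.000878). The pan-leukocyte gene Ptprc rose from 66.8 and 84.6 to 216 and 231 (1.56 ± 0.12, adjusted p = 1.96e-11). Erythroid genes gave 10 rises and 5 falls in 21. Alas2, the first enzyme of haem synthesis in red cells, rose from 253 and 268 to 476 and 512 (0.92 ± 0.08, adjusted p = 1.45e-10), while Tfrc, the transferrin receptor gene, fell from 3029 and 3139 to 2418 and 2525 (-0.32 ± 0.04, adjusted p = 7.49e-07). The adult globin copies Hba-a1 and Hba-a2 are near-identical, and no source used here says how their fragments were divided, so their rises of 0.52 and 0.82 are uncertain.

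Immediate early genes rose together. They are switched on within a short time of growth factor, stretch or handling stimuli, through factors such as SRF, which binds the CArG box. Of 21 tested factors, 19 rose and 1 fell, with a median of 1.04. The summed level of the list was 16534 and 16535 in the control, 34736 and 33102 in the knockout, set beside 37717 and 38008 for the PR domain control, and only 9 of the rises lay above all 4 wild-type libraries. Here too the control was the group that stood apart. Atf3, a stress-induced factor, stood at 825 and 797, 2105 and 1863 and 1844 and 1837 (1.29 ± 0.06, adjusted p = 2.30e-17), and Nr4a1, an orphan nuclear receptor gene, at 904 and 857, 1840 and 1791 and 2134 and 2118 (1.04 ± 0.05, adjusted p = 3.14e-16). Myc, which growth factors also induce, fell from 200.4 and 185 to 117 and 121 (-0.69 ± 0.13, adjusted p = 7.39e-05). Effector genes of the same response gave 17 rises and 2 falls in 25 (1 fall without control replicate 1 or knockout replicate 2). Zfp36, which destabilises inflammatory mRNAs, rose from 571 and 546 to 1356 and 1325 (1.26 ± 0.05, adjusted p = 9.65e-18), and Dusp1, a MAP kinase phosphatase gene, from 675 and 656 to 1222 and 1214 (0.87 ± 0.06, adjusted p = 3.13e-13). How the embryoid bodies were collected is not given for each group in the sources used here, and its part in this result was not tested.

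RefSeq promoters (GRCm38.p6, from 250 bases before to 50 after the start) were found for 16 of the immediate early factors. A CArG box on either strand occurred in 2 of them, Srf and Egr2, or 12.5%, against 1.58% of the 10297 tested genes with 1 gene name and a promoter. The 100 bases before the start of each are shown, 5′ to 3′ on the strand of the gene, with CArG boxes in capitals, because these genes answer to SRF and Srf has a pair of boxes 82 and 62 bases before its start (chr17:46556163-46556262, minus strand; Egr2, chr10:67537466-67537565, plus strand).
Srf: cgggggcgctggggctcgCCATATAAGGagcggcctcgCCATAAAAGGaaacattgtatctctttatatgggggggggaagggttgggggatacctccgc
Egr2: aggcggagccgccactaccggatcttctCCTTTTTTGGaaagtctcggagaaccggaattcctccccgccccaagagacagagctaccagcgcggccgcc
Srf rose only from 717 and 685 to 829 and 783 (0.20 ± 0.07, adjusted p = 0.0142) and was not called without control replicate 2 (adjusted p = 0.114) or knockout replicate 1 (adjusted p = 0.125). Egr2 went from 99.7 and 113 to 311 and 290.5 (1.49 ± 0.10, adjusted p = 5.13e-13). A match is a description of letters and not a shown binding site.

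Endothelial genes fell. Of 29 endothelial genes 16 fell and 2 rose, and all 16 falls lay below all 4 wild-type libraries. Nos3, endothelial nitric oxide synthase, stood at 134 and 158 in the control, 63.3 and 46.2 in the knockout, set beside 258 and 268 for the PR domain control (-1.41 ± 0.15, adjusted p = 1.48e-08). The rises were those of receptor genes. Tek, the angiopoietin receptor gene, rose from 1002 and 1031 to 1176 and 1217 (0.24 ± 0.05, adjusted p = 0.000631), and Kdr, the main VEGF receptor gene, from 1871 and 1888 to 2031 and 2101 (0.14 ± 0.05, adjusted p = 0.0164), although Kdr was not called without control replicate 1 (adjusted p = 0.0789), control replicate 2 (adjusted p = 0.0523) or knockout replicate 2 (adjusted p = 0.134). The PR domain control was above the knockout at Tek and Kdr (1332 and 1344 and 2223 and 2304). Genes of arterial, venous and lymphatic subtypes gave 6 rises and 7 falls in 16, with 3 rises without control replicate 2. Of arterial genes, the gap junction genes Gja4 (90.1 and 96.9 to 24.8 and 25.3; -1.86 ± 0.18, adjusted p = 1.90e-09) and Gja5 (85.9 and 98.8 to 28.5 and 26.4; -1.71 ± 0.20, adjusted p = 5.35e-08) fell, as did Dll4, the arterial Notch ligand (48.8 and 67.7 to 13.6 and 17.6; -1.82 ± 0.24, adjusted p = 3.45e-07), and Cxcr4, a chemokine receptor gene of arterial endothelium (68.9 and 65.8 to 17.4 and 19.8; -1.81 ± 0.22, adjusted p = 1.62e-07). Their PR domain control values were 159 and 156, 145 and 155, 139 and 116 and 79.1 and 83.6, above the knockout at each. The scavenger receptor gene Stab2 of venous and sinusoidal endothelium rose from 59.4 and 64.0 to 120.3 and 139 (1.06 ± 0.23, adjusted p = 0.000395), with 14.2 and 10.3 in the PR domain control. In the Notch list as a whole 13 of 16 fell and 0 rose. Heyl, a Notch target (71.0 and 58.3 to 13.6 and 23.1; -1.80 ± 0.22, adjusted p = 1.04e-07), and Notch4, the endothelial receptor (110.3 and 110 to 43.4 and 30.8; -1.56 ± 0.18, adjusted p = 5.89e-08), also fell, while Hey2 did not pass (-0.02 ± 0.16, adjusted p = 0.925).

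In the heart lineage, contractile genes fell and several early regulators rose. Of 20 sarcomere loci 12 fell and 2 rose. Myl2, the ventricular myosin light chain gene, went from 394 and 397 to 145 and 122 (-1.56 ± 0.08, adjusted p = 3.44e-15) with 911 and 907 in the PR domain control, and Tnnt2, cardiac troponin T, from 1226 and 1392 to 798 and 817 (-0.69 ± 0.06, adjusted p = 2.74e-11) with 2685 and 2672. The summed level of the list was 20808 and 21839 in the control, 20082 and 19797 in the knockout, set beside 40909 and 41288 for the PR domain control, so in sum the wild-type groups differed by more than the knockout and its control. Tpm1, a tropomyosin gene of many cell types, made up a large part of that sum and did not pass (0.04 ± 0.04, adjusted p = 0.331). The largest fall among cardiac factors was Tbx1, a T-box gene of the pharynx and the second heart field (37.1 and 43.3 to 3.72 and 5.50; -2.89 ± 0.32, adjusted p = 1.64e-08), followed by Isl1. Myocd, the cardiac and smooth muscle coactivator, fell from 126 and 149.5 to 79.4 and 66.0 (-0.91 ± 0.15, adjusted p = 9.56e-06). Tbx5, a T-box gene of the first heart field, rose from 65.7 and 77.1 to 160 and 138 (1.05 ± 0.15, adjusted p = 1.24e-06), and Hopx from 130.4 and 98.8 to 211 and 197 (0.84 ± 0.17, adjusted p = 0.000254). Among channel genes, Cacna1c, the L-type calcium channel gene (135 and 126 to 44.7 and 58.3; -1.33 ± 0.16, adjusted p = 6.02e-08), and Pln, the calcium pump inhibitor phospholamban (28.6 and 38.6 to 12.4 and 14.3; -1.26 ± 0.27, adjusted p = 0.000421), fell, and Hcn4, the pacemaker channel gene, rose (0.46 ± 0.12, adjusted p = 0.00183). Epicardial genes gave 7 rises and 5 falls in 13, with fewer falls without control replicate 2. Only 1 of the rises lay above all 4 wild-type libraries, while all 5 falls lay below them. Besides Wt1, Bnc1 (0.67 ± 0.05, adjusted p = 2.78e-11) and Upk3b (0.69 ± 0.06, adjusted p = 9.20e-11), both of the mesothelium, rose, and the PR domain control was level with or above the knockout at both (1132 and 1136 and 937 and 964). Twist1 and Sema3d were among the falls of this list.

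Of 30 fibroblast matrix genes, 21 rose and 5 fell. Col1a1, the main chain of type I collagen, rose from 14213 and 13489.9 to 21458 and 19524 (0.56 ± 0.04, adjusted p = 1.73e-13), while its partner chain Col1a2, at 16505 and 16454 and 17449 and 16509, did not pass (0.04 ± 0.03, adjusted p = 0.27). Fbln2, a basement membrane fibulin gene, rose from 927 and 952 to 1983 and 1909 (1.05 ± 0.05, adjusted p = 1.59e-16), and Eln, the elastin gene, from 187 and 209 to 401 and 361 (0.94 ± 0.10, adjusted p = 4.83e-09). The 5 falls included Fbn2, a fibrillin gene (-0.28 ± 0.05, adjusted p = 1.40e-05). In the PR domain control Col1a1 was at 21643 and 21333, level with the knockout, and 9 of the 21 rises lay above all 4 wild-type libraries. Matrix genes thus rose while the mesenchymal factors Prrx1 and Twist1 fell.

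**Figure D5:**
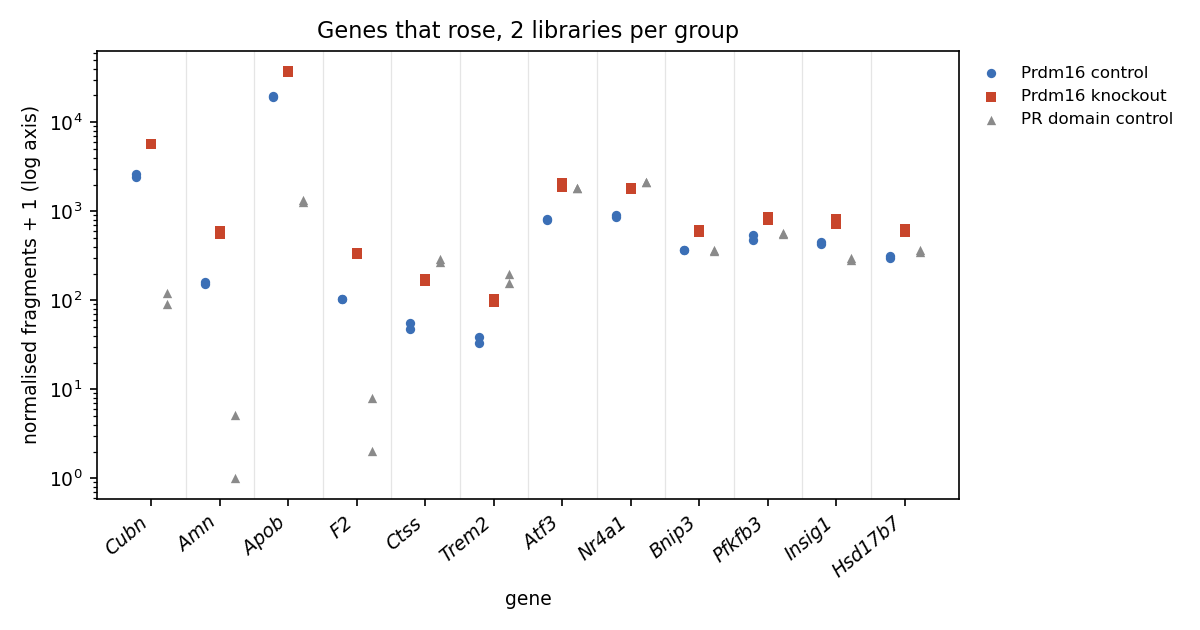
Normalised fragments plus 1 (log axis) of 12 genes that rose, 1 point per library of the Prdm16 control, Prdm16 knockout and PR domain control. The knockout points of Cubn, Amn, Apob and F2 lie above both wild-type groups with the PR domain control lowest, those of Ctss, Trem2, Atf3 and Nr4a1 lie near the PR domain control with the control lowest, and those of Bnip3, Pfkfb3, Insig1 and Hsd17b7 lie above both groups.

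Genes of glycolysis and the hypoxia response rose by small amounts in large number. Hypoxia-inducible factor binds the core ACGTG before such genes. Of 33 tested members 21 rose and 2 fell, with a median of 0.22, and 18 of the rises lay above all 4 wild-type libraries. Bnip3, a mitophagy receptor gene, rose from 363 and 363 to 586 and 617 (0.73 ± 0.08, adjusted p = 9.56e-09). P4ha1, a collagen prolyl hydroxylase gene, rose from 1881 and 1886 to 3042 and 2977 (0.68 ± 0.04, adjusted p = 3.23e-13), and Pfkfb3, which makes an activator of glycolysis, from 475 and 541 to 856 and 797 (0.70 ± 0.07, adjusted p = 3.63e-09). Car9, a carbonic anhydrase gene that low oxygen induces, was low and rose from 17.0 and 18.8 to 44.7 and 47.3 (1.32 ± 0.35, adjusted p = 0.00337). The falls were Gapdh (-0.89 ± 0.17, adjusted p = 7.08e-05), which has many processed copies that could share its fragments, and Pkm (-0.09 ± 0.04, adjusted p = 0.0438), which was not called without control replicate 1 (adjusted p = 0.303), knockout replicate 1 (adjusted p = 0.0952) or knockout replicate 2 (adjusted p = 0.191). The core ACGTG, on either strand, stood in the promoter of 21 of the 29 listed genes with a RefSeq promoter (72.4%), against 29.0% of the 10297 tested genes. Of the members that rose it stood in 14 of 18, so in 7 of the 11 others. Over all genes called higher the share was 29.3% and over those called lower 28.8%, at the background. The 250 bases before the start of Car9, Bnip3, Pfkfb3 and P4ha1, the members with the largest rises whose promoter holds the core there, are shown 5′ to 3′ on the strand of the gene, with the core in capitals as it reads on that strand. Their positions are chr4:43506776-43507025, plus strand for Car9, chr7:138909507-138909756, minus strand for Bnip3, chr2:11502091-11502340, minus strand for Pfkfb3 and chr10:59323046-59323295, plus strand for P4ha1.
Car9: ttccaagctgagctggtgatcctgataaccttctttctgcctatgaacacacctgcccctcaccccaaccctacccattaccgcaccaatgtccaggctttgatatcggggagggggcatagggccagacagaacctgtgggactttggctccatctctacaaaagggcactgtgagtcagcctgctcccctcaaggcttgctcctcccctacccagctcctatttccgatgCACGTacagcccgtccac
Bnip3: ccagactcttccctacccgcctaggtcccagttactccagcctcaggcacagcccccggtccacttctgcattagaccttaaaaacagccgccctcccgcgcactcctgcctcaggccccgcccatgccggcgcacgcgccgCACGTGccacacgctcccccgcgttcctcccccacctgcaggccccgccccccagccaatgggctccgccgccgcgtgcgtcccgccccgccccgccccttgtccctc
Pfkfb3: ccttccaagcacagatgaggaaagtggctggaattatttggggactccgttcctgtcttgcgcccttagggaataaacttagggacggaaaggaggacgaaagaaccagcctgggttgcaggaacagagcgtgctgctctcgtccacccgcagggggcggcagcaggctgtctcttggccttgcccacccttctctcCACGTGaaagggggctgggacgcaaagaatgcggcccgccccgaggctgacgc
P4ha1: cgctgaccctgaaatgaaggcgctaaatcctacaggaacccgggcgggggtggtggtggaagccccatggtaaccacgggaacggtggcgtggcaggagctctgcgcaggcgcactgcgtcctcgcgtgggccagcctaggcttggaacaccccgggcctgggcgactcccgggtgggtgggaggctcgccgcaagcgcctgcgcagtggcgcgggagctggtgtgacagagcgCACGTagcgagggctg
In Car9 and P4ha1 the core lay 18 and 16 bases before the start, and in Bnip3 and Pfkfb3 cores on both strands overlapped to CACGTG.

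Cholesterol synthesis genes gave 16 rises and 1 fall in 22, with a median of 0.34, and all 16 rises lay above all 4 wild-type libraries. Hmgcs1, an early enzyme of the pathway, rose from 2532 and 2666 to 3294 and 3370 (0.36 ± 0.04, adjusted p = 1.44e-07), and Hsd17b7, a late one, from 313 and 294 to 588 and 629 (1.00 ± 0.08, adjusted p = 6.62e-11). Insig1, which restrains the pathway when sterols are ample, rose from 454 and 429.8 to 723 and 809 (0.79 ± 0.08, adjusted p = 4.36e-09). Srebf2, the activator most tied to sterols, rose (0.25 ± 0.05, adjusted p = 3.97e-05), and Srebf1 fell (-0.20 ± 0.05, adjusted p = 0.00327) but was not called without control replicate 2 (adjusted p = 0.0851). Ribosome biogenesis genes moved the other way, with 0 rises and 18 falls in 20. Nolc1, a nucleolar scaffold gene on chromosome 19, fell from 1491 and 1509.5 to 989 and 970.4 (-0.61 ± 0.05, adjusted p = 2.48e-10), and Dkc1, a pseudouridine synthase gene, from 701 and 725 to 452 and 528 (-0.54 ± 0.08, adjusted p = 1.76e-06). Only 6 of these falls lay below all 4 wild-type libraries. In the cell cycle list 14 of 33 fell and 4 rose. The cyclin D genes diverged: Ccnd1 (-1.09 ± 0.08, adjusted p = 2.45e-12) and Ccnd2 (-0.72 ± 0.05, adjusted p = 7.64e-13) fell and Ccnd3 rose (0.53 ± 0.05, adjusted p = 4.51e-10). Mki67 and Top2a, marks of cycling cells, did not pass (-0.12 ± 0.05, adjusted p = 0.0644 and -0.05 ± 0.04, adjusted p = 0.299). The p53 target list gave 11 falls and 3 rises in 20, and Cdkn1a and Mdm2 did not pass (-0.13 ± 0.06, adjusted p = 0.072 and -0.09 ± 0.06, adjusted p = 0.247).

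Fat genes, tied to Prdm16 in brown adipocytes, were mostly low. Of 26 listed genes 11 lay below the filter, Ucp1, Cidea, Fabp4 and Adipoq among them, and of 15 tested 7 rose and 4 fell, counts that were 3 rises without control replicate 2, 4 rises without knockout replicate 1 and 2 falls without control replicate 1. Cebpb, a partner of Prdm16 early in brown fat fate, rose from 27.6 and 32.0 to 75.7 and 78.1 (1.34 ± 0.22, adjusted p = 9.93e-06), and Pparg, at 10.6 and 14.1 and 14.9 and 16.5, did not pass. Mitochondrial respiration genes gave 7 rises and 4 falls in 24, with a median of 0.05. That is 29.2% and 16.7%, beside 18.6% and 21.8% of all loci. Both counts were smaller without control replicate 2, and rises were fewer without knockout replicate 2.

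Among chromatin genes, enzymes of H3K4 and H3K9 methylation gave 17 falls and 1 rise in 30, the Y-linked Kdm5d included. Kmt2d, an H3K4 methyltransferase gene, fell from 1064 and 974 to 770.5 and 687 (-0.49 ± 0.07, adjusted p = 1.04e-06), and Setdb1, an H3K9 methyltransferase gene, from 1125 and 1164 to 933 and 980.3 (-0.26 ± 0.06, adjusted p = 0.000465). Kdm4c, an H3K9 demethylase gene, rose (0.43 ± 0.08, adjusted p = 0.0001). Polycomb and DNA methylation genes gave 5 rises and 10 falls in 23. Among the Polycomb members Bmi1 (-0.82 ± 0.12, adjusted p = 4.31e-06) and Cbx2 (-0.74 ± 0.08, adjusted p = 5.49e-09) fell while Cbx8 (1.04 ± 0.23, adjusted p = 0.000493) rose. Posterior Hox and Cdx genes gave 5 rises and 0 falls in 14, all at low levels. The count of rises was 2 without any 1 of the 4 libraries. Hoxd9 went from 29.7 and 39.5 to 80.6 and 70.4 (1.11 ± 0.29, adjusted p = 0.00253) and was not called without control replicate 1 (adjusted p = 0.0516), and its neighbour Hoxd8 from 43.5 and 40.4 to 79.4 and 82.5 (0.93 ± 0.23, adjusted p = 0.00177). Their PR domain control values were 20.3 and 13.4 and 49.7 and 32.0, at or below the control.

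Imprinted genes moved in both directions. Paternally expressed genes gave 11 rises and 11 falls in 27, and maternally expressed ones 6 and 7 in 17, of which 3 rises were called without control replicate 1. Dlk1, a transmembrane inhibitor of differentiation, rose from 10819.6 and 10727 to 27037 and 24918 (1.27 ± 0.04, adjusted p = 3.88e-21), while Meg3 and Rian, maternally expressed RNAs of the same domain, fell by 0.64 and 0.45 on the log2 scale. The Meg3 locus also carries the names of microRNAs inside it. Plagl1, a zinc finger gene, rose from 10642 and 11034 to 23326 and 23391 (1.11 ± 0.03, adjusted p = 5.44e-22). Grb10, the largest fall outside the Y chromosome, had 1399.5 and 1408 in the PR domain control, itself below its level of 3869 and 4129.8 in the control and far above the 44.7 and 28.6 of the knockout. Of its 5 tested neighbours within 1 Mb, the 3 that passed rose: Ikzf1, a lymphoid factor (0.74 ± 0.18, adjusted p = 0.00153), Ddc, dopa decarboxylase (0.43 ± 0.10, adjusted p = 0.00091), and Vwc2 (1.26 ± 0.38, adjusted p = 0.00875). Ikzf1 was not called without control replicate 2 (adjusted p = 0.0547), and Vwc2 was not called without control replicate 1 (adjusted p = 0.0548). Fignl1 and Cobl did not pass.

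Among long non-coding RNAs, the largest rises were Gm26776 (53.01 and 55.5 to 259 and 227; 2.14 ± 0.15, adjusted p = 3.48e-12), Gm47547, Tslrn1, Gm45441 and Gm2895, of which all but Gm26776 stayed below 80 in every library. The largest falls were Gm16136 (22.3 and 28.2 to 0 and 4.40; -3.49 ± 0.51, adjusted p = 2.13e-06, and -2.27 without knockout replicate 1), C130021I20Rik, Foxd2os, Miat and Foxl2os. Miat, at 79.5 and 99.7 in the control, 6.20 and 13.2 in the knockout, set beside 5.07 and 8.26 for the PR domain control, again placed the knockout with the other wild-type group. Foxd2os and Foxl2os lie antisense to forkhead genes, and no source used here states the strand setting of the counting, so their fragments cannot be told apart from those of their partners.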

How the data were processed

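RNA-seq of total RNA was analysed from 4 day 9 libraries, with the 4 libraries of the PR domain set in the same fit. The deposited values are named counts per the file headers but are not whole, and are treated here as signal, fragments per locus divided by 1 factor per library; how the authors set that factor is not given in the sources used. The authors also deposited FPKM, used only in an alternative. Listed in the submitters' processing notes are Cufflinks 2.2.1, TopHat2 2.1.1, deepTools, SAMtools 1.5 and mm10, with no role given. The values are whole multiples of 1 fragment per library (at least 99.996% of values within 0.1 of a whole number), so fragments were recovered. They summed to 6273789 to 8142365 on named loci, with 1.88% to 2.11% on unnamed loci, which stayed out. Loci with at least 10 in at least 2 of the 4 libraries were tested with limma 3.58.1 (R 4.3.3, trend) on log2(value + 1), 4 group means, knockout minus control, with Benjamini-Hochberg adjustment over 16032 loci and a threshold of 0.05. This understates changes of low loci.

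Alternatives used edgeR 4.0.16 and DESeq2 1.42.0, both on recovered fragments. The fits were tested on simulated data. The number of simulated 4-fold changes that each tool had to recover was lowered after DESeq2, used only as an alternative, fell short of it. Where several loci carried a name, the one with the highest mean level was used. Coordinates come from GENCODE M21 and promoters from RefSeq, matched by symbol. Members and gene lists were chosen with earlier results of these data known. Named were Prdm16, the 20 largest rises and falls with 1 gene name and a group mean of at least 100, the 4 called members of each list and direction with the smallest adjusted p, any list member beside its list's counts, genes within 1 Mb of Prdm16 and Grb10, and the 5 largest long non-coding changes per direction. The labels' replicate numbers were not taken as pairs, since the correlation of same-numbered deviations was -0.048. Replicates differed beyond counting noise, with a chi-square of 1.56 per degree of freedom in the control and 2.23 in the knockout. Some members are not reported here.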

Additional observations from a re-analysis of the deposited data

How the results depend on the processing

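The counts of 2975 higher and 3491 lower loci stayed within 1.5 times of these values under the alternatives run, with 3 exceptions, whose causes were not tested. Fewer loci were called on log2(FPKM + 1) (1249 higher, 1065 lower), with a minimum fold of 1.5 asked for in the test (326 and 350), and by DESeq2's Wald test (2200 and 1810). edgeR's quasi-likelihood test on the recovered fragments called 3294 higher and 3087 lower. With any 1 library left out, a fit that assumes the lone sample varies like the other groups, the counts ranged from 2308 to 2472 higher and from 2634 to 3003 lower. The higher share of calls was 46.0%, and 51.3% with TMM scaling, 52.9% with DESeq2 size factors, 54.0% on FPKM, 54.9% with DESeq2's test and 39.3% with total-fragment scaling, so the balance of rises and falls turns with the scaling. The scalings moved the median of all loci by -0.038 to 0.037. With the replicate block the counts were 2966 and 3471, and no call of a gene given with its statistics was lost. Medians of chromosome 8 ranged from -0.27 to -0.14 and those of chromosome 19 from -0.24 to -0.16. Leaving out chromosomes 8, 19 and Y was chosen after seeing the data.

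Of 154 called genes given with their statistics, 67 kept their call and direction under each alternative run that tested them. A stricter level filter held 145 of the 154, and a gene that an alternative did not test was not counted as lost. Most losses came with the minimum fold (76 genes) and on FPKM (41 genes), where Abcg1, Aldh1a3, Axin2, Bmi1, Cacna1c, Car9, Cbx8, Ccnd2, Ctbp1, Dcx, Ddc, Egr2, Ehmt1, Fbn2, Fgfr3, Gata2, Grhl2, Hcn4, Hnf4a, Hoxd8, Igf1r, Ikzf1, Kdm4c, Kdr, Kmt2d, Lrp2, Notch4, Pcdh19, Pkm, Prdm10, Prdm16, Setdb1, Sfrp2, Srebf2, Srf, Stab2, Tbx18, Tek, Trp63, Twist2 and Uba1 were not called. Ctbp1 and Pkm were also lost with TMM or DESeq2 size factors. Against the mean of both control groups Eomes (0.16), Lrp2 (0.11), Pkm (0.18) and Pou5f1 (1.46) turned positive, and B2m, Gli1, Kdr, Prdm10, Ptch1, Spi1, Srf, Tek, Twist2 and Zic1 were not called. On FPKM Gli1 (0.072) and Srebf1 (0.083) turned positive. Depth limits the low loci: those near 10 fragments carry few fragments each, so small differences there were not detectable.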

Other observations

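Several gene lists not described above also held calls. Cartilage and bone genes gave 4 falls and 1 rise in 10 (5 falls and 2 rises without control replicate 1). Col2a1, the main collagen of cartilage, stood at 1534 and 1528 in the control, 491 and 489.6 in the knockout, set beside 2189.5 and 2249.9 for the PR domain control (-1.64 ± 0.05, adjusted p = 8.96e-21), and Hapln1, which links hyaluronan to proteoglycan, fell as well (-0.76 ± 0.07, adjusted p = 1.27e-09). The rise was that of Sox5, a chondrogenic factor (0.67 ± 0.13, adjusted p = 0.000152). Heart field and cardiac factors gave 10 rises and 6 falls in 20, with the zinc finger factors Gata4 (0.71 ± 0.05, adjusted p = 5.11e-13) and Gata6 (0.68 ± 0.05, adjusted p = 1.11e-12) and the helix-loop-helix factor Hand2 (0.64 ± 0.06, adjusted p = 1.76e-09) among the rises, and all 10 rises lay above all 4 wild-type libraries. Surface ectoderm and epithelial genes gave 6 rises and 10 falls in 19. The related factors Grhl2 (-1.45 ± 0.14, adjusted p = 1.67e-09) and Grhl3 (0.88 ± 0.10, adjusted p = 1.34e-08) moved in opposite directions. Trp63, the p63 factor of stratified epithelium, fell from 53.01 and 52.7 to 18.6 and 7.70 (-2.04 ± 0.32, adjusted p = 8.22e-06). Cadherin and protocadherin genes gave 4 rises (2 without control replicate 1) and 9 falls in 21, Pcdh19, a neural protocadherin gene, among the falls (-1.96 ± 0.29, adjusted p = 3.41e-06).

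Interferon and antigen presentation genes gave 11 rises and 3 falls in 29, with 7 rises without control replicate 1 or knockout replicate 2 and 0 falls without knockout replicate 1. B2m, the shared light chain of class I molecules, rose from 1052 and 980 to 1352 and 1373 (0.42 ± 0.05, adjusted p = 4.66e-08), with 1784 and 1754 in the PR domain control. Ifit1, an interferon-induced antiviral gene, went from 20.1 and 24.5 to 50.9 and 53.9 (1.20 ± 0.26, adjusted p = 0.000455). In the insulin and IGF list 4 of 18 rose and 8 fell, Grb10 among the falls. Igf2, the fetal growth factor gene, rose (0.32 ± 0.03, adjusted p = 4.94e-11) and Igf1r, its receptor gene, fell (-0.42 ± 0.06, adjusted p = 1.05e-06). Antagonists and targets of BMP and TGF-beta gave 7 rises and 6 falls in 20. Bambi, a decoy receptor gene, rose (0.88 ± 0.05, adjusted p = 5.68e-14) and the target genes Id3 (-0.52 ± 0.06, adjusted p = 1.50e-07) and Id4 (-1.65 ± 0.19, adjusted p = 4.25e-08) fell. Their relative Id2 rose (0.19) and Id1 did not pass. Smad6, Smad7 and Smad9 of the same list rose as well (0.50, 0.46 and 0.87). In the PRDM family 2 of 11 rose and 5 fell, Prdm16 included, with 3 falls without control replicate 1, control replicate 2 or knockout replicate 1. Prdm6, a smooth muscle member, rose (0.95 ± 0.08, adjusted p = 1.43e-10) and Prdm10 fell (-0.51 ± 0.10, adjusted p = 0.000125), while the close relative Mecom did not pass.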
